A study of Mus musculus with 860 samples.

Results

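Cluster 4 is a group of 76 cells that the study's clustering of mouse AGM endothelium and blood-forming cells set apart and that carries the working label HSC-primed arterial hemogenic endothelium. Its members were taken as every cell with the entry 4 in the deposited cluster annotation, 76 of the 775 cells that passed the study's quality filters and of 860 cells sequenced in all. They were compared with the 585 kept cells of clusters 0, 1, 2, 3 and 5. The cells came from dissected AGM (aorta, gonads and mesonephros) regions of embryos of the strain labelled CD1/Gf1+, which carry the Gfi1:tomato reporter, at E11.5 and at E10.5. Every cell came from such reporter embryos, and no cell was treated. The sorted gates were GFI1+ HE (CD31+ cKIT- with reporter signal), GFI1+ IAHC (CD31+ cKIT+ with reporter signal) and GFI1- IAHC (CD31+ cKIT+ without it), where HE is hemogenic endothelium and IAHC are intra-aortic hematopoietic clusters. Embryos were pooled before the sort and no cell was tied to an embryo. Each sorted cell gave 1 Smart-Seq2 library, a full-length cDNA method without molecular identifiers, and the fluorescence of 9 signals was recorded for each cell as it was sorted.

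Hemogenic endothelium is the part of the wall of the embryonic dorsal aorta from which the first hematopoietic stem cells (HSC) arise. In the mouse this step needs Runx1 and is helped by Gata2 and by Gfi1, a repressor under which the cells lose their endothelial genes and leave the wall for the blood stream. Arterial identity in this wall depends on Notch signalling, in which a ligand of the Delta or Jagged family on one cell activates a Notch receptor, whose cleaved inner part then switches on repressors of the Hes and Hey family in the nucleus.

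Some libraries were the same cell sequenced again, so the batches did not stand for separate sorts. Over 17965 genes, 15 pairs of libraries correlated at 0.978 to 0.989 (Pearson's r of log2 CPM + 1, where CPM is counts scaled to the same total in every cell or sum of cells), against at most 0.830 for any other pair. Of these 15 pairs, 13 lay across batches and 2 within a batch, and both libraries of a pair were always in the same cluster. Cluster 4 held 2 such pairs, an E11.5 HE cell sequenced in GL53 and GL78 and an E10.5 HE cell sequenced in GL58 and GL78, so that its 76 libraries were 74 cells. The 775 kept libraries were 760 cells. Of the 15 pairs 7 carried the same 9 index values. The other 8, all GFI1- IAHC at E11.5 in GL53 and GL78, carried different ones and lay in wells turned by 180 degrees. A further 8 pairs of libraries were different cells by their RNA but carried the same 9 index values, those GL53 libraries having the values of GFI1+ HE wells of GL78. Their reporter signals of 341.3 to 989.4 lay above the 55 GFI1- IAHC libraries of that GL78 plate (−113.9 to 298.6) and within its 31 GFI1+ HE libraries (318.8 to 1499). Counting each cell 1 time kept 710 of the 734 genes called higher in cluster 4 below and 575 of the 604 called lower.

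Cells of cluster 4 had 157932 to 1257235 counts (median 718575), against 212116 to 2296823 in the other 5 clusters (median 747155). Thinned to 50000 counts, a cluster 4 cell showed a median of 5054.5 genes, against 5702 in the other clusters, and the median mitochondrial share was 2.01%, against 1.74%. Each library was 1 cell and no embryo was named, so a group of cells counted as 1 sample and no test was possible. Counts were summed over the cells of each side within a batch, and the log2 ratio of CPM + 1 was averaged over the batches GL53, with 33 cluster 4 cells (20665515 counts against 160619349 in the other clusters), and GL78, with 38 (29968652 against 218989003). The error given is the SD over these 2 sequencing batches, which share plates. The clustering had used these same genes, so every difference in RNA between clusters is a description of what was grouped. Gate, stage, batch and index fluorescence were not used by the clustering.

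The 5 marker genes of the cluster were all present, which restates the grouping, since the clustering had used them. Gja5 and Gja4 code for the arterial gap junction proteins connexin 40 and connexin 37, Vwf for von Willebrand factor, Fn1 for fibronectin and Ltbp4 for a matrix protein that binds latent TGF-beta. All 5 had reads in 63 of 76 cluster 4 cells, against 9 of 585 cells of the other clusters, and no cluster 4 cell had fewer than 2 of them. Gja5 (chr3:96904693-97077416, GRCm38) had reads in 32 of 33 cluster 4 cells of GL53 at E11.5, where its lowest, median and highest levels were 0, 1403 and 3553 CPM, against 5.53% of the other cells (4.26% after thinning to 50000 counts), none of which went above 155.8 CPM. In GL78 it had reads in 9 of 10 cluster 4 cells at E11.5 and in 28 of 28 at E10.5, against 3.62% and 16.5% of the other cells (2.17% and 12.03% after thinning). At E10.5 the lowest cluster 4 cell had 240.2 CPM of Gja5 and the highest other cell 815.3 CPM, so the ranges overlapped there although most other cells were at 0. Gja4 was less restricted, with 812.8 to 6246 CPM in the 33 cluster 4 cells of GL53 and 0 to 1752 CPM in the other cells of that batch, of which 23.4% had a read.

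**Figure D1:**
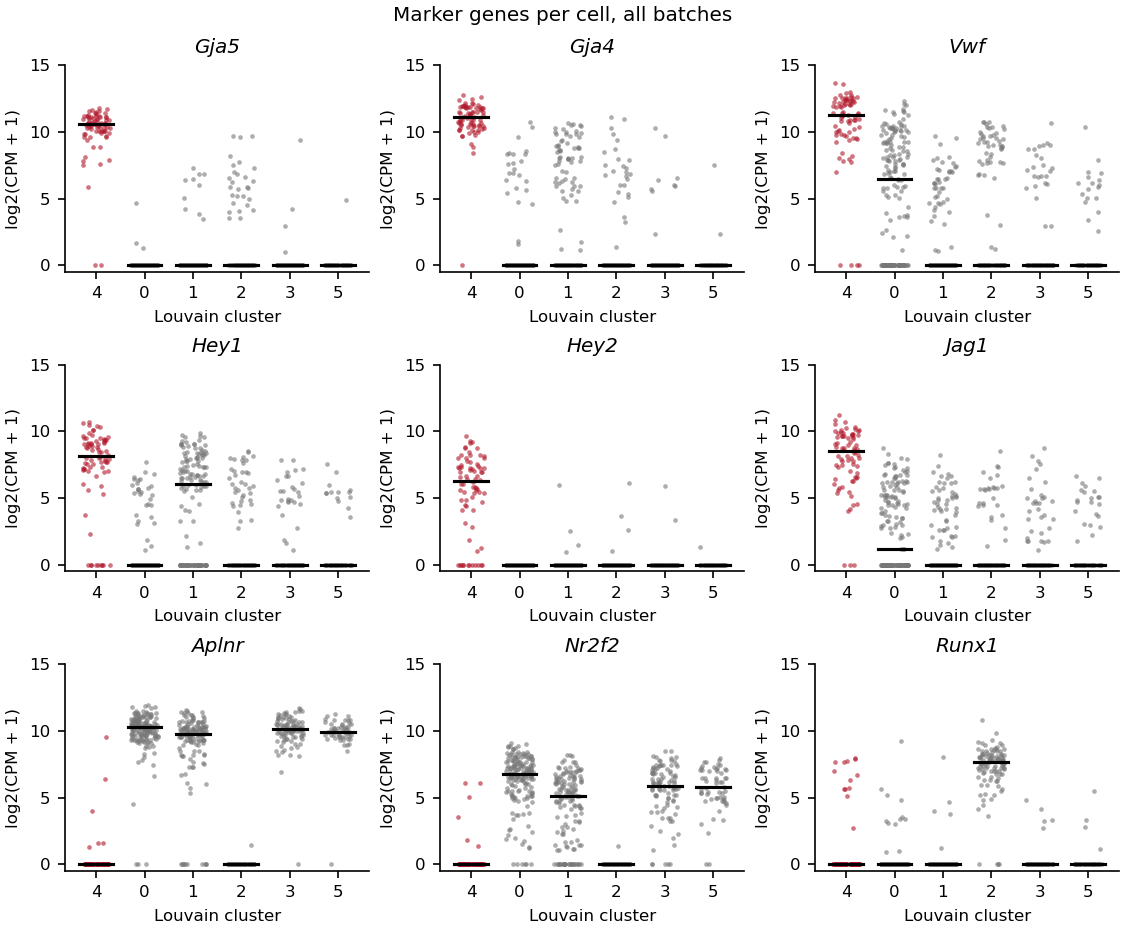
Level of 9 genes in each cell (log2 of CPM + 1) by Louvain cluster, all batches together, with cluster 4 in red, the other clusters in grey and the median of each cluster as a black bar. Gja5 and Hey2 had reads in 96.97% and 87.88% of cluster 4 cells in GL53, against 5.53% and 0.851% of the other cells. In cluster 2 Gja5 had reads in 21.4% of cells in GL53 and 27.9% in GL78. Aplnr and Nr2f2 were near 0 in clusters 4 and 2 and Runx1 was highest in cluster 2.

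The endothelial identity was also clear, while the haemogenic part of the label was only partly met. Pecam1 (CD31) and Cdh5 (VE-cadherin), which hold endothelial cells together, had reads in every cluster 4 cell of GL53 and GL78. Pecam1 ran from 808.2 to 5184 CPM in the 33 cells of GL53, and Cdh5 from 595 to 3618 CPM. Runx1, the transcription factor that the transition to blood requires, had reads in 5 of 33 cluster 4 cells of GL53 at E11.5, 0 of 10 of GL78 at E11.5 and 8 of 28 of GL78 at E10.5. Gfi1, a repressor of endothelial genes and the gene whose reporter set the gate, had reads in 0 of 33, 0 of 10 and 8 of 28 of these cells. With 0 of 33 cells, up to 9.09% of cells could have had a read, which limits cells with a read and not cells that express the gene. After thinning to 50000 counts the Runx1 shares were 15.2%, 0% and 28.6%, so depth changed none of these shares. The reporter signal of these cells therefore stood beside no Gfi1 reads at E11.5. This was not particular to cluster 4. Among HE cells only, Gfi1 reads stood in 0% of cluster 4 and 0% of other cells of GL53 at E11.5. In GL78 at E10.5 these shares were 26.9% against 9.8%. Runx1 reads stood in 12.5% against 4.94% of HE cells in GL53 at E11.5 and 30.8% against 19.6% in GL78 at E10.5. In the other clusters Runx1 was concentrated in cluster 2, with reads in 89.3% of its cells in GL53 and 98.5% in GL78, while clusters 0, 1, 3 and 5 had reads in 0% to 14.3% of cells. The cluster is called cluster 4 below.

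Cluster 4 consisted mainly of cells from the HE gate. It held 69 GFI1+ HE cells, which was 90.8% of its cells (95% Clopper-Pearson interval 81.9% to 96.2%), with 4 GFI1+ IAHC and 3 GFI1- IAHC cells, against 33.2% (29.4% to 37.1%) HE cells among the 585 of the other clusters. Such intervals cover counting error only. It took 24.6% of all kept HE cells. By batch and stage it took 28.3% of the HE cells in GL53 at E11.5 (32 cells, 20.2% to 37.6%), 7 of 40 in GL78 at E11.5 (17.5%, 7.34% to 32.8%) and 26 of 91 in GL78 at E10.5 (28.6%, 19.6% to 39%). These intervals overlapped. GL58 gave 3 of 19 HE cells at E11.5 and 1 of 18 at E10.5. In all, 47 cluster 4 cells came from E11.5 and 29 from E10.5.

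Most cluster 4 cells had been assigned to G1 by the study, from the same RNA, with cell cycle effects regressed out before clustering. G1 was the assigned phase of 62 of 76 cluster 4 cells (81.6%, 71.03% to 89.55%), against 45.8% (41.7% to 49.9%) of the 585 in the other clusters. Only 1 cluster 4 cell was assigned to S. Within the HE gate the G1 share was 31 of 32 cluster 4 cells in GL53, against 43 of 78 HE cells of clusters 0, 1, 3 and 5. At E10.5 in GL78 it was 18 of 26, against 7 of 42, and at E11.5 in GL78 it was 5 of 7, against 17 of 31, where the intervals overlapped (29.04% to 96.33% against 36.03% to 72.68%).

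**Figure D2:**
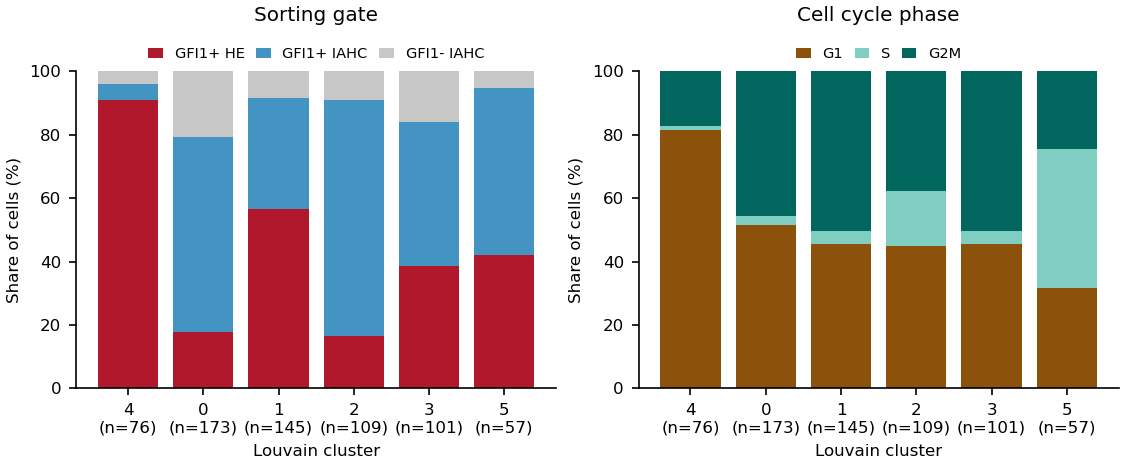
Share of cells (%) of each Louvain cluster by sorting gate (left) and by assigned cell cycle phase (right), with the number of cells under each bar. Cluster 4 had the highest share of GFI1+ HE cells, 90.8%, and of G1 cells, 81.6%.

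Across the transcriptome, 734 of 10143 genes with at least 10 CPM in either side (7.24%) were at least 2-fold higher in cluster 4 in both batches and 604 (5.95%) at least 2-fold lower. The median log2 ratio of all these genes was −0.06. The 12 genes with the largest smallest ratio over the batches, with reads in at least 25% of cells, were, for the higher side, Eln, Gja5, Htra1, Dkk2, Tmem100, Fbln2, Cxcl12, Ltbp4, Hey2, Lama3, Bmx and P4ha3. Most of them code for matrix proteins or for proteins known from arteries.

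Genes of the vessel wall matrix were mostly higher in cluster 4. Elastic fibres, which give arteries their recoil, are built from elastin (Eln) on a scaffold of fibrillin, fibulins and latent TGF-beta binding proteins, and are cross-linked by lysyl oxidases. Of 13 genes in this list 12 were measured, 10 of these were at least 2-fold higher in cluster 4 in both batches and 0 lower, with a median log2 ratio of 3.71. Eln (chr5:134702593-134747323) summed to 1750 CPM in cluster 4 of GL53 against 4.54 CPM in the other clusters, and to 593.7 against 3.16 CPM in GL78, a log2 ratio of 7.73 ± 0.81 (SD, n = 2 batches). It was uneven between cells, with a median of 714.8 and a highest level of 13785 CPM in the 33 cells of GL53, where 9 cells had no read. The GL78 sum joined 2518 CPM at E11.5, of which 53.2% came from 1 GFI1- IAHC cell, and 17.7 CPM at E10.5. The ratio was 8.62 with HE cells only and 6.57 within batch and stage, and in HE cells of GL78 at E10.5 alone 3.53. With the 5 cells of GL58 counted as a further batch its mean ratio was 4.93. Fbln5, which tethers elastin to cells, had a log2 ratio of 8.32 and Fbln2, a fibulin of vessel walls, one of 6.72 ± 1.23. Ltbp4 stood at 5.57, the cross-linking enzyme Lox at 3.91 and Fbn1 (fibrillin 1) at 3.56. Ltbp4 was the evenest of these, with reads in 33 of 33 cluster 4 cells of GL53. Htra1, a secreted protease that acts on matrix, stood at 7.23 ± 1.38, and P4ha3, a prolyl hydroxylase of collagen chains, at 5.41 ± 0.52. The members that were not called were Emilin1, at 0.04, and Loxl2, at 1.21, and the list also holds the marker genes Ltbp4, Vwf and Fn1.

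Genes of arterial endothelium were higher almost throughout. Of 18 measured genes 16 were at least 2-fold higher in both batches and 0 lower, with a median of 2.65, and the other 2, Sox17 and Acvrl1, had ratios of 0.99 and 1.12. The list holds Gja4 and Gja5, which also mark the cluster, so its count is not independent of them. Cxcl12, a chemokine of arterial and stromal cells, had a log2 ratio of 5.70 ± 0.48 but came from few cells: it had reads in 12 of 33 cluster 4 cells of GL53, 1 of which held 40% of its counts. Bmx, a kinase known from arterial endothelium, had reads in 31 of 33 of these cells, against 5.96% of the others, and a ratio of 5.85 ± 1.04. Sema3g, an arterial semaphorin, stood at 4.68, Vegfc at 3.27, Unc5b at 2.42, Epas1 at 2.38, the ephrin ligand Efnb2 at 2.28, Nrp1 at 2.23 and Cxcr4, the receptor of Cxcl12, at 2.18. Dkk2, a secreted modulator of Wnt signalling, was nearly absent elsewhere: reads stood in 31 of 33 cluster 4 cells of GL53 against 5.11% of the others, and its ratio of 5.94 ± 0.04 was alike in both batches. Tmem100, an endothelial target of BMP signalling, had a ratio of 6.25 ± 0.50. Lama3, a laminin chain, had reads in 33 of 33 cluster 4 cells of GL53, against 3.40% of the others, and a ratio of 5.85 ± 0.99.

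**Figure D3:**
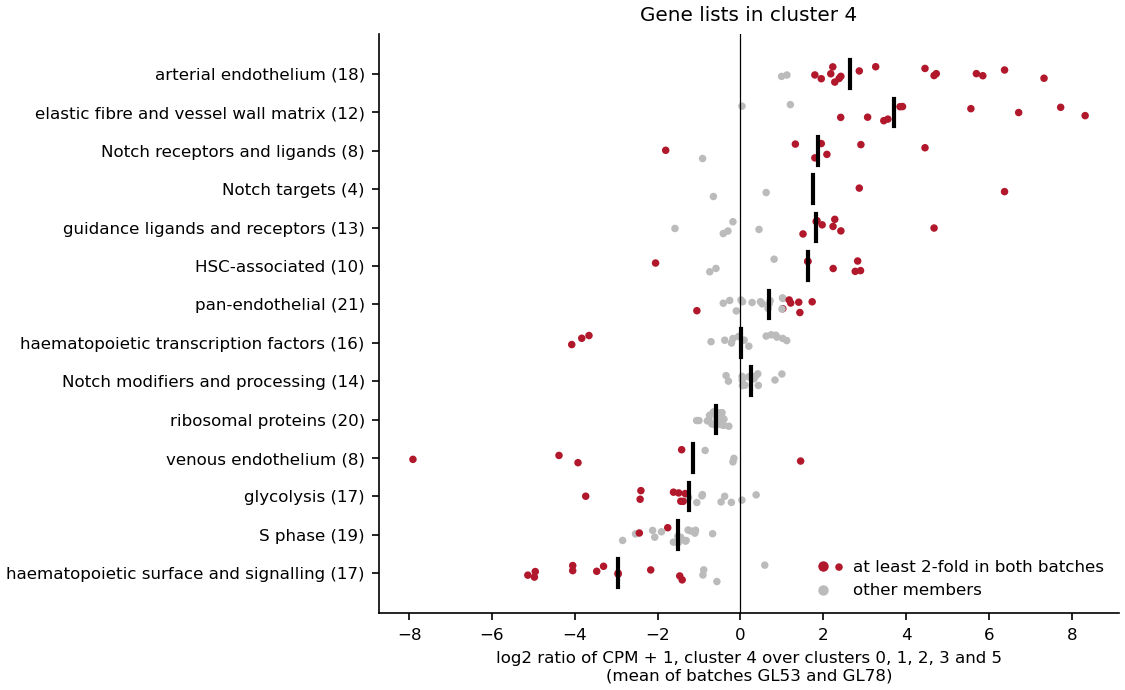
Log2 ratio of each measured gene of 14 lists, cluster 4 over the other clusters (mean of 2 batches), with genes at least 2-fold apart in both batches in red, other members in grey, the list median as a black bar and the number of measured genes in brackets. Medians ran from 3.71 for the elastic fibre list to −2.95 for the hematopoietic surface list, while the 14 genes that modify or process Notch lay between −0.35 and 1.00.

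Genes across the cell surface where Notch signals are exchanged were mostly higher in cluster 4. Of the 8 measured receptors and ligands 6 were at least 2-fold higher and 1 lower, with a median of 1.87. Among the receptors, Notch1 had reads in every cluster 4 cell of both batches, with a median of 291.2 CPM in GL53 against 105.4 CPM in the other cells and a log2 ratio of 1.33 ± 0.10. Notch4, the receptor known from endothelium, stood at 1.80 ± 0.72 and Notch3, a receptor known mainly from vessel wall muscle, at 2.91 ± 0.18, with 77.5 CPM against 10.4 CPM in GL53. Notch2 was low on both sides, at 9.48 CPM against 17.97 CPM in GL53. Among the ligands, Jag1 (chr2:137081456-137116644) differed most. Its lowest, median and highest levels in the 33 cluster 4 cells of GL53 were 0, 801.4 and 2452 CPM, against 0, 0 and 440.2 CPM in the other cells, and its ratio was 4.46 ± 0.60. In GL78 every one of the 28 cluster 4 cells at E10.5 had Jag1 reads, at 17.25 to 815.8 CPM, against 39.9% of the other cells. Jag2 stood at 2.09 and Dll4, the Delta ligand of arteries, at 1.95 ± 0.04. Dll1 was the ligand that went the other way, at −1.80 ± 0.21, with 20.2 CPM in cluster 4 of GL53 against 65.7 CPM, most of which was in cluster 0 (157.9 CPM).

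The Notch targets did not move together. Of 7 in the list 4 had at least 10 CPM on either side, and 2 of these were called higher. Hey1 and Hey2, repressors that hold arterial identity, were higher, and Hes1, the only Hes gene measured, was not. Hey1 had a lowest, median and highest level of 0, 249.5 and 1625 CPM in the 33 cluster 4 cells of GL53, against 0, 0 and 864.0 CPM in the other cells, and its ratio of 2.87 ± 0.05 was alike in both batches. Hey2 had 211.5 and 63.4 CPM, against 0.181 and 0.676 CPM, a ratio of 6.38 ± 1.58. Both had reads together in 25 of 33 cluster 4 cells of GL53, 7 of 10 of GL78 at E11.5 and 21 of 28 at E10.5, and 1 of these 71 cells had reads of neither. Hes1 stood at −0.65 ± 0.31, with 50.8 CPM in cluster 4 of GL53 against 93.6 CPM. Heyl and Hes5 had few reads: Heyl summed to 5.61 CPM in cluster 4 of GL53 against 1.25 CPM and to 6.34 CPM in GL78 against 0, a ratio of at least 462.8 if the other side is set to the floor of 3 counts. Gata2, a hematopoietic factor that Notch is known to induce in the AGM, stood at 0.62 ± 0.55. None of the 14 measured genes that modify or process Notch, such as Mfng, Rfng, Rbpj and the secretase subunits, was called, and their median was 0.26.

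The upstream sequence of Hey2 is shown because Hey2 is the target gene most nearly confined to cluster 4 and because its sequence holds a motif to which RBPJ, the DNA-binding partner of cleaved Notch, is known to bind. The motif searched was CGTGGGAA on either strand, and the 250 bases before the start site, from RefSeq on GRCm38.p6, are printed 5′ to 3′ along the gene with the match in capitals.
Hey2, chr10:30842784-30843033, minus strand: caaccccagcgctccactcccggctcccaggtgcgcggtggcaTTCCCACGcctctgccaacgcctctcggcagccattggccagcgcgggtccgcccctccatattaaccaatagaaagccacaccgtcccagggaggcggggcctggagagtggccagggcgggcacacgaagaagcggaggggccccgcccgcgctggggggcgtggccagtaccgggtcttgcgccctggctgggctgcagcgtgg
The match in capitals is on the reverse strand and begins at position −207 from the start site. A forward match begins at position −5 and runs across the start site, so that its last bases are not printed. In the same 250 bases, 0.636% of 32851 mouse promoters held the motif, and in the window of 300 bases that also covers the start site 4 promoters (0.0122%) held it 2 or more times. Of 42 genes named here as higher or named whatever their values, 31 had a promoter in the table and 1, Hey2, held a match. A match describes these letters and not a bound site.

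Against the other clusters together, transcription factors of blood formation were not shifted as a group, but those of later blood cells were nearly absent. Of 16 measured factors 0 were at least 2-fold higher and 3 lower, with a median of 0.02. The 3 were Myb (−3.83), Spi1 (−3.66) and Ikzf1 (−4.07), factors of blood progenitors, myeloid cells and lymphoid cells. Cluster 2, part of the other side, held 100.6, 254.9 and 259.5 CPM of them (mean of batches). Among HE cells only, Myb had 0.28 against 4.18 CPM and Spi1 1.96 against 8.35 CPM. Both were then under the limit of 10 CPM and were not called. Gata2 had reads in 28 of 33 cluster 4 cells of GL53 and 25 of 28 of GL78 at E10.5, at medians of 120.2 and 131.7 CPM. Runx1 summed to 11.42 and 39.04 CPM in cluster 4 of GL53 and GL78, against 23.2 and 53.9 CPM, a ratio of −0.71 ± 0.36, in which the other side is set by cluster 2. Reads of Runx1 and Gfi1 stood together in 5 of the 28 cells of GL78 at E10.5, Runx1 alone in 3 and Gfi1 alone in 3.

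Genes associated with HSC were mostly higher. Of 10 measured 6 were called higher and 1 lower, with a median of 1.63. Mecom, a factor that HSC need, had reads in 32 of 33 cluster 4 cells of GL53 and in all 38 of GL78, at 681.7 and 380.9 CPM, against 97.4 and 51.3 CPM, a ratio of 2.83 ± 0.05. Mllt3, which maintains HSC in culture, stood at 2.77 ± 0.54, Procr, a surface receptor used to sort HSC, at 1.63 ± 0.03, and Prdm16 at 2.90. Mycn was lower, at −2.05. Hlf, a factor of HSC, had reads in 3 of 33 cluster 4 cells of GL53, with 6.73 CPM against 9.94 CPM.

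Surface and signalling genes of blood cells were lower. Of 17 measured 12 were at least 2-fold lower and 1 higher, with a median of −2.95. Ptprc (CD45) had no read in any cluster 4 cell of GL53 or GL78, which was at least 203.2-fold and 394.3-fold lower than in the other clusters if 3 counts are taken as the floor. Kit, the receptor of stem cell factor, had reads in 8 of 33 cluster 4 cells of GL53 against 78.3% of the others, and a ratio of −1.47 ± 0.21. Flt3 stood at −4.05 and Rac2 at −4.96. Cd44, an adhesion receptor for hyaluronan, was the member that was higher, at 2.38. The gate moves with this list, since 53.7% of the other cells were GFI1+ IAHC. Among HE cells only, by batch and stage, 4 of 11 measured members were lower and 2 higher, with a median of −0.999. Of all 9955 genes in that comparison 4.47% were lower and 7.95% higher. The 13 measured transcription factors had a median of 0.69.

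On the lower side the named genes were Prl3b1, Kcne3, Aplnr, Lhx6, Samsn1, Apln, Gas7, Nr2f2, Gpr183, Spry1 and Plau. Aplnr, the apelin receptor of veins and sprouting vessels, had 3 counts in the 33 cluster 4 cells of GL53, against 1192 CPM in the other clusters, a ratio of 8209-fold (95% Poisson interval 2809 to 39804, for counting error only and not for the spread between cells). In GL78 it summed to 13.2 CPM in cluster 4 against 787.4 CPM. Nr2f2, the factor that sets venous identity, had 3.73 CPM in cluster 4 of GL53 against 99.2 CPM, a ratio of −4.38 ± 0.04, and no read in the 28 cells of GL78 at E10.5. Apln, the ligand of Aplnr and a gene of tip cells, stood at −4.84 ± 0.41. Lhx6 had no read in cluster 4 of GL53 against 45.1% of the other cells with a read, and Samsn1 had none in either batch. Prl3b1, a placental hormone gene of the prolactin family, had none in cluster 4 and reads in 25.1% of the other cells of GL53. Plau, the urokinase protease, stood at −4.60 and Spry1, an inhibitor of receptor kinase signalling, at −5.25. Cluster 2 was also near 0 for Aplnr and Nr2f2, with 0.0568 CPM of each in GL53.

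Other groups of endothelial genes differed in part. Of 8 measured venous genes 4 were lower and 1, Ackr3, higher (1.45), with a median of −1.14, while Emcn (−0.16) and Ephb4 (−0.18) were alike on both sides. Of 6 measured lymphatic genes Prox1 (−3.96) and Lyve1 (−2.86) were lower. Among HE cells only, by batch and stage, 0 of 4 measured lymphatic genes were lower, with a median of −0.24. Lyve1 then stood at 0.60 and Prox1 was under the limit of 10 CPM. Of 21 genes shared by all endothelium 6 were higher and 1 lower, with a median of 0.69; Mmrn2 (1.73), Tek (1.44) and Ramp2 (1.41) were the highest and Ets1 (−1.05) was the lower one. Of 13 guidance genes 8 were higher and 0 lower (median 1.83), and of 12 genes of VEGF and angiopoietin signalling 7 were higher and 1, Nrp2 (−3.92), lower (median 1.10). The growth factor genes Vegfa (3.09), Vegfc (3.27) and Pgf (2.71) were higher, whereas the receptor gene Kdr stood at 0.28. In the flow and vasoactive list 5 of 12 were higher and 1 lower (median 0.91): Pde3a (4.99), Npr3 (3.65), Ptgis (3.56), which makes prostacyclin, Edn1 (2.81) and Nos3 (1.45) against Ptgs1 (−3.79). Klf2, a factor induced by flow, was not called (0.57). Of 13 BMP and TGF-beta response genes 4 were higher and 0 lower, Tmem100, Bmp6 (4.95) and the inhibitors Smad6 (3.36) and Smad7 (2.14). Of 11 basement membrane genes 3 were higher and 0 lower (median 0.91), led by the laminin chain Lama5 (3.36). The 2 connexin genes beside Gja4 and Gja5, Gja1 and Gjc1, stood at −1.13 and 0.30.

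Growth and metabolism genes had medians on the lower side, with few or no calls among those of replication, mitosis and ribosomes. Of 17 genes of glycolysis and lactate export 8 were at least 2-fold lower and 0 higher, with a median of −1.25, among them Pfkp (−3.74), Slc16a3 (−2.42), Hk2 (−2.40), Gapdh (−1.44) and Ldha (−1.38). Among HE cells only the median was −1.29 with 9 of 17 lower, against 4.47% of all genes. Against cluster 2 alone the glycolysis median was −0.88, and 1 member, Slc2a1, was called higher in cluster 4 (1.63). The median of 19 genes of DNA replication was −1.51 with 2 called lower, at −2.35 in GL53 and −0.45 in GL78, and of 14 mitosis genes −1.01 with 0 called, at −1.65 in GL53 and −0.28 in GL78. Ccnd1, the cyclin that starts the cell cycle, stood at −3.84, and it and Cdkn1a were the 2 called lower of 5 measured cyclin and inhibitor genes. Of 14 immediate early genes 6 were lower (median −1.29), led by Atf3 (−2.20) and Zfp36 (−2.19). All 20 ribosomal protein genes lay between −0.28 and −1.06. The adhesion molecule gene Vcam1 (2.19) was higher and Tnfaip3, an inhibitor of NF-kB, lower (−1.95) among 9 inflammatory genes, and Ifitm3 (1.61) was the only one called of 8 genes of MHC class I and the interferon response. Assigned phase moved with these lists, as given above.

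Against the other clusters together, summed markers of blood cell types were lower in cluster 4 and those of mesenchyme, mesonephros and nerve higher. The 10 macrophage markers summed to 3.54 to 67.8 CPM in cluster 4 over the 2 batches and the 9 myeloid markers to 3.24 to 6.15 CPM, against 70.7 to 77.9 and 155.7 to 185.9 CPM in the other clusters, with Mpo, Ctsg and Cebpe at 0 in cluster 4. The lymphoid markers summed to 23.2 to 41.6 CPM, against 140.5 to 170 CPM, with Rag1, Rag2 and Il7r at 0 in cluster 4. The megakaryocyte markers summed to 22.65 to 33.3 CPM, against 81.32 to 133.1 CPM, with Gp9 and Ppbp at 0, and the erythroid markers to 44.01 to 47.2 CPM, against 53.39 to 151.8 CPM, with Klf1 at 0. By cell the erythroid sum was not lower, with a median of 8.82 CPM in cluster 4 against 0 CPM. It was above 100 CPM in 10 of 71 cluster 4 cells and 35 of 506 others. The highest single cell had 630.8 CPM in cluster 4 and 27304 CPM in the other clusters. The germ cell markers, 6 of 8 at 0, summed to 1.07 to 8.78 CPM, against 1.85 to 2.12 CPM, ranges that overlapped. The 14 mesenchyme and smooth muscle markers were higher, summing to 218.8 to 316.2 CPM, against 23.41 to 56.01 CPM in the other clusters, with reads for 10 of 14 and none for Dcn, Lum, Cspg4 and Myh11. Their 4 measured members were Col3a1 (3.46), Col1a2 (3.08), Acta2 (2.25) and Tagln (2.21). Against cluster 2 alone Col3a1 (6.57) and Col1a2 (4.47) were higher, while Acta2 (0.06) and Tagln (1.01) were not called. The mesenchyme markers moved with the elastic fibre genes, whose list is also expressed by smooth muscle, and their part in that difference was not tested. The neural markers, 4 of 8 at 0, summed to at least 89.56 CPM in both batches, against at most 11.59 CPM, and the mesonephric markers, 6 of 11 at 0, to 93.4 to 135.1 CPM, against 30.31 to 31.02 CPM. Each list had 1 measured gene. Isl1, a factor of neural and cardiac progenitors, stood at 4.08 ± 1.12, with reads in 63.6% and 68.4% of cluster 4 cells against 10.2% and 18.1%, and Krt18, a keratin counted with the mesonephric markers, at 2.39. Against cluster 2 alone Isl1 stood at 4.09 and Krt18 at −0.07.

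Cluster 1 had the next highest share of HE cells (56.55%), and the one in which Runx1 reads were concentrated was cluster 2. Against cluster 1, 852 of 9972 genes (8.54%) were at least 2-fold higher in cluster 4 and 515 (5.16%) lower. Dll4 was not called, at 394.2 CPM in cluster 4 and 243.4 CPM in cluster 1 in GL53 and 357.2 and 282.8 CPM in GL78 (ratio 0.52 ± 0.25), and neither were Notch1 (0.74 ± 0.05) and Notch4 (0.80 ± 0.14). Jag1 was higher in cluster 4, at 750.2 against 17.5 CPM and 275.4 against 9.94 CPM (5.00 ± 0.49), and Hey2 stood at 6.13 while Hey1 stood at 1.29. Of the 4 measured Notch targets 3 were called higher and 1, Hes1, lower than in cluster 1. Runx1 (3.34 ± 0.07), Mllt3 (4.03), Procr (3.57) and Gata2 (1.93) were higher in cluster 4 than in cluster 1. Of 13 measured transcription factors of blood formation 7 were higher and 0 lower than in cluster 1, with a median of 1.93. Against cluster 2, 1345 of 10554 genes (12.7%) were at least 2-fold higher in cluster 4. There Runx1 (−3.28), Gfi1 (−3.71), Kit (−2.99) and Spi1 (−6.26) were lower in cluster 4 and 17 of 18 arterial genes higher (median 4.23). The 18 measured transcription factors of blood formation had a median of −1.17 against cluster 2, and 0 were called higher. Mecom was higher than in cluster 2 (2.71) and Mllt3 too (1.24), while Procr stood at 0.77 ± 0.08 and Gata2 at −0.70 ± 0.73. Of the 12 HSC-associated genes 5 were higher and 5 lower than in cluster 2, with a median of 0.39, against −0.15 for all genes. The share of all genes called lower than in cluster 2 was not calculated, so the 5 lower ones cannot be set against it. Hlf (−3.37), Mycn (−2.96) and Msi2, an RNA-binding protein of stem cells (−1.95), were among the lower ones.

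Index fluorescence gave a readout the clustering had not used. HE cells of cluster 4 were set against HE cells of clusters 0, 1, 3 and 5 within batch and stage, as the share of all pairs of cells in which the cluster 4 cell was brighter, where 50% would mean no shift. cKIT was lower in cluster 4 in all 3 strata, although the HE gate excludes cKIT+ cells. In GL53 its lowest, median and highest signals were −137.7, −24.9 and 69.9 in 32 cluster 4 cells, against −132.5, 143.3 and 742.6 in 78 other HE cells, and the cluster 4 cell was brighter in 12.5% of pairs. The share was 5.53% in GL78 at E11.5 (7 against 31 cells) and 18.6% at E10.5 (26 against 42 cells). Of the 7 cells, 5 lay on the plate that the turned GL53 libraries match, and whether signals there belong to the wells they are listed for was not tested.

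For NOTCH1 and JAG1, RNA and surface signal differed in direction in at least some strata. NOTCH1 signal was lower in cluster 4 in GL53, with a median of 512.0 against 1045 and 18.4% of pairs brighter, while Notch1 RNA there had a log2 ratio of 0.89. In GL78 the NOTCH1 share was 38.3% at E11.5 and 43.1% at E10.5, with RNA ratios of 0.71 and 1.38. JAG1 signal had medians of 7753 in cluster 4 and 9333 in other HE in GL53 (37.2% of pairs brighter), of 15925 and 10855 in GL78 at E11.5 (64.5%) and of 6761 and 8642 at E10.5 (42.7%), so its direction differed between strata. Jag1 RNA in the same cells had ratios of 5.448, 4.603 and 4.022. DLL4 signal was brighter in 59.46%, 61.29% and 67.95% of pairs, and Dll4 RNA was higher too, with ratios of 1.09, 0.57 and 1.81. Against HE cells of cluster 1 only, the DLL4 share was 50.6% in GL53 and went to the other side in GL78, 43.9% at E11.5 and 39.3% at E10.5. Over single cells, Dll4 RNA and DLL4 signal had a Spearman rho of 0.07 in the 32 cluster 4 HE cells of GL53 and 0.11 in the 26 of GL78 at E10.5, against 0.48 in 78 and 0.54 in 42 other HE cells. These are descriptions over cells that share a plate and a sort. Leaving out libraries with shared index values turned no share of these 4 signals to the other side of 50%, and moved the NOTCH1 share of GL78 at E11.5 to 28.99%. NOTCH2 signal had shares of 49.36%, 56.22% and 49.36%, and the GFI1 reporter, by which the gate was set, 39.9%, 64.06% and 60.16%. CD31, CD41 and CD45 signals had shares between 37.2% and 63.5%.

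**Figure D4:**
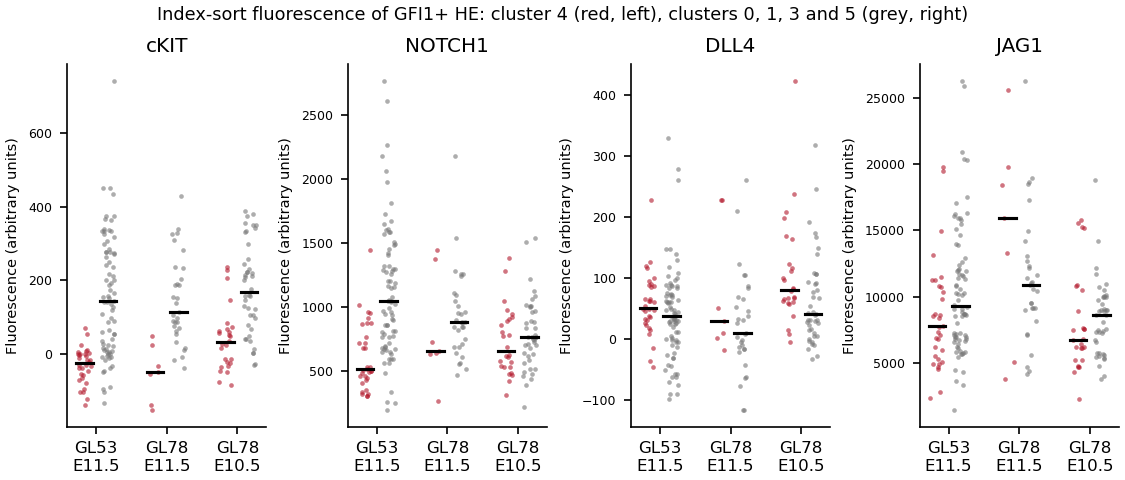
Fluorescence recorded at the sort (arbitrary units) for cKIT, NOTCH1, DLL4 and JAG1 in GFI1+ HE cells, cluster 4 in red on the left and clusters 0, 1, 3 and 5 in grey on the right of each pair, by batch and stage, with medians as black bars. cKIT was lower in cluster 4 in all 3 strata, while JAG1 was brighter in 37.2%, 64.5% and 42.7% of pairs.

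Within cluster 4, the stages could be compared in GL78 only, as 10 cells at E11.5 against 28 at E10.5, on different plates, so that stage and plate cannot be told apart. Of 10116 genes 1912 (18.9%) were at least 2-fold higher at E11.5 and 1810 (17.9%) lower, shares that rest on few cells. The genes named by the same kind of rule were, for E11.5, Fbln5, Mgp, Moxd1, Eln, Smoc1, Kcnn4, Ltbp3 and Kazald1, several of them matrix genes. Fbln5 had reads in 7 of 10 cells at E11.5 (0, 863.7 and 8211 CPM as lowest, median and highest) and in none of 28 cells at E10.5. The GL53 cells at E11.5 showed the same, with reads in 27 of 33 and a median of 2596 CPM. Eln summed to 2518 CPM at E11.5 in GL78 and 1750 CPM in GL53, against 17.7 CPM at E10.5, where 9 of 28 cells had a read and none went above 105.6 CPM. Of the Eln counts of GL78 at E11.5, 53.2% came from 1 GFI1- IAHC cell. With HE cells only the log2 difference of Eln was 5.90 in place of 7.08. Mgp, which inhibits mineralisation of vessel walls, had reads in 5 of 10 cells of GL78 and 20 of 33 of GL53 at E11.5, against 0 of 28. Eln and Fbln5 were found together in 22 of 33 cells of GL53 and 7 of 10 of GL78 at E11.5, and over the 32 HE cells of GL53 their Spearman rho was 0.72.

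The named genes of E10.5 were less even. Acta2, the actin of smooth muscle, had reads in 0 of 10 cells at E11.5 in GL78 and 3 of 33 in GL53, against 15 of 28 at E10.5, with a highest level of 1677 CPM. Itgb3, the integrin chain of CD61, had reads in 0 of 10 and 4 of 33, against 17 of 28. Adpgk, Atad3a and Cdk5rap3 were at 0.724, 0 and 0 CPM in the 10 cells of GL78, but with the GL53 cells at E11.5 in their place their log2 differences were −1.17, −0.48 and 0.31, so Cdk5rap3 changed sign. Rps2-ps13, a pseudogene of Rps2 that can share its reads, had 0.579 CPM in cluster 4 at E11.5 and 218.4 CPM at E10.5, and 1.90 CPM against 432.9 CPM in the other clusters of GL78, so this difference was not particular to cluster 4. Of the 18 arterial genes 4 were higher at E11.5 and 1 lower, with a median of 0.21. Of all genes 18.9% were higher and 17.9% lower, so the count of higher arterial genes was near that share. Sema3g had 150.5 CPM at E11.5 and 64.08 CPM at E10.5 (1.22) and the ligand gene Jag1 561 and 189.9 CPM (1.56), and Bmx had a ratio of 1.30, while Dll4 had 194.7 and 405.9 CPM (−1.06) in GL78 but 394.2 CPM at E11.5 in GL53. Of the marker genes, Vwf had 4077 and 1708 CPM (1.25) and Gja4 stood at 0.13. Gja5 had 1522 CPM at E11.5 and 1652 CPM at E10.5 in GL78, and Hey1 408.5 and 367.6 CPM. Hey2 had 90.2 and 55.4 CPM, and 211.5 CPM in GL53 at E11.5.

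**Figure D5:**
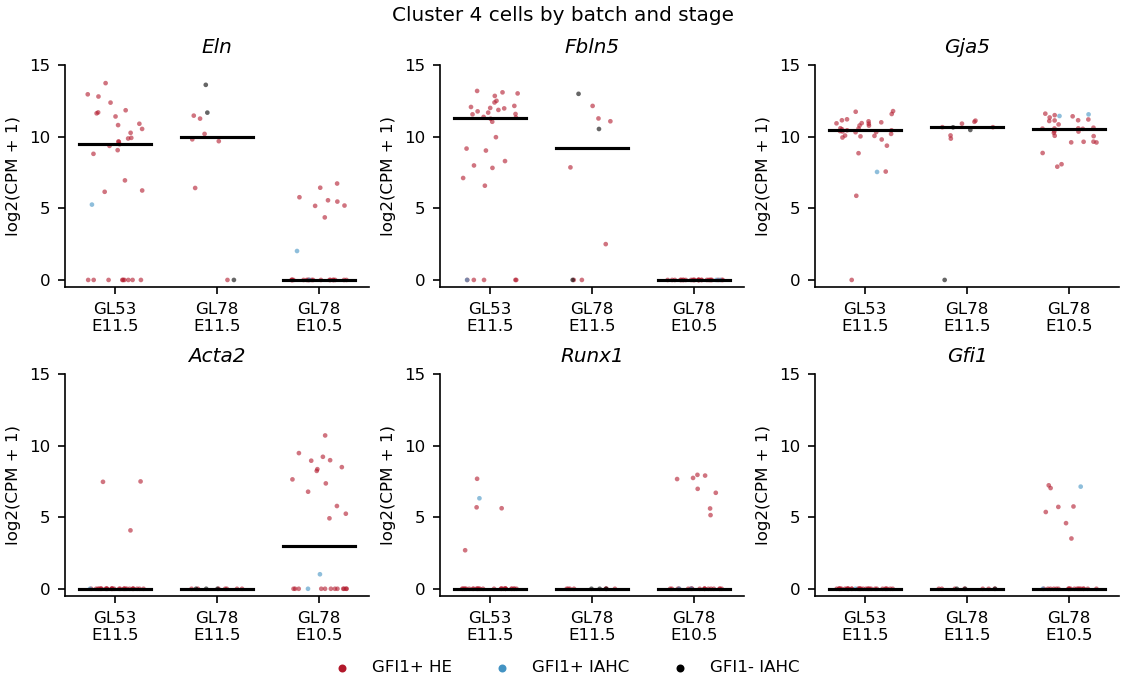
Level of 6 genes in each cluster 4 cell (log2 of CPM + 1) by batch and stage, E11.5 left of E10.5, coloured by sorting gate, with the median as a black bar. Fbln5 reads stood in 27 of 33 and 7 of 10 cells at E11.5 and in 0 of 28 at E10.5, Gfi1 reads only in the 8 cells of E10.5, while Gja5 was alike in all 3 groups.

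The genes whose level followed that of Gja5 most closely across cells, among the genes called in the main comparison, were Lama3 (mean Spearman rho of both batches 0.79, 577 cells in all), Hey2 (0.78), Bmx (0.72), Dkk2 (0.69) and Gja4 (0.67), and the opposite end was held by Aplnr (−0.51), Nrp2 (−0.50) and Nr2f2 (−0.47). These values carry the division between cluster 4 and the other cells, and the cells share plates and depth. Inside the cluster the relations were weaker: over the 32 HE cells of GL53 Gja5 and Gja4 had a rho of 0.09, and over the 26 of GL78 at E10.5 one of 0.33. Dll4 and Hey1 had rhos of 0.43 and 0.61 in these cells, whereas Jag1 and Hey1 had 0.17 and −0.35. Runx1 and Gfi1 had a rho of 0.62 at E10.5.

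Some members stood apart from the rest. A GFI1- IAHC cell of GL78 at E11.5 with 406796 counts had no read of Gja4, Gja5, Fn1, Hey1, Hey2 or Jag1 and had 752.2 CPM of Aplnr, the highest of any cluster 4 cell in GL53 and GL78, with 98.3 CPM of Spi1. It held all Aplnr reads of its group of 10. The other 2 GFI1- IAHC cells carried 1621 and 1427 CPM of Gja5, 12686 and 3302 CPM of Eln and no read of Kit, the receptor by which their gate was set. Kit reads stood in 27 of the 55 GFI1- IAHC libraries of their plate, so their lack was common there. These GFI1- IAHC cells lay on the GL78 plate that the turned GL53 libraries match. Whether their gate labels belong to their wells was not tested. Of the 4 GFI1+ IAHC cells all had Gja4, Gja5, Hey1 and Mecom reads, and 1 had Runx1 reads, at 79.1 CPM. A GFI1+ HE cell of GL53 had 1577 CPM of Gja4 and 949.9 CPM of Hey1 but no read of Gja5, Vwf, Hey2 or Jag1.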

How the data were processed

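The deposited file held raw counts per gene for 860 Smart-Seq2 libraries. Per the submitters' processing notes, the authors aligned reads to mm10 with STAR 2.7.3 and counted them with HTSeq 0.9.1. No source used here gave the strand setting or the annotation release. The annotation deposited by the authors gave each cell's cluster, phase, mitochondrial fraction of counts and index fluorescence intensity on a linear scale, not scaled between sorts. The authors had kept cells with at least 2500 genes, 50000 counts and at most 5% mitochondrial counts and clustered them with Scanpy 1.4.4 (Louvain resolution 0.5, 50 principal components). The deposited table of normalized values was not used here. Symbols and coordinates were taken from the GENCODE mouse annotation on GRCm38, which named 45229 of 46078 genes; the others held 0.0581% of counts. Counts were not divided by gene length, so levels were compared between groups of cells and not between genes.

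Counts were summed per side and batch where each side had at least 10 cells, divided by the total (CPM), and compared as a log2 ratio after 1 CPM was added to each side, averaged over batches. Genes with at least 10 CPM on either side entered, and a gene was called when 2-fold apart in the same direction in every batch. Named genes were the 12 per direction with the largest smallest ratio among genes with reads in at least 25% of the cells of the higher side in every batch, 8 per direction between stages, unnamed gene models passed over, and markers, Notch genes, HSC genes and genes of the index proteins whatever their values. The members and the 34 gene lists were chosen with earlier results of these data known. Calculations used Python 3.11.15, numpy 2.4.6, pandas 2.3.3 and scipy 1.17.1, and the comparison was tested on simulated data. Fold changes against 0 used a floor of 3 counts per side and batch. Results for a few genes that met these rules are not reported here.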

Additional observations from a re-analysis of the deposited data

Results flagged for a closer look

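Some genes went opposite ways in cluster 4 at the 2 stages, each relative to the other clusters; these differences were not tested. Cxcl1, a chemokine, had log2 ratios of −2.63 and −4.36 at E11.5 in GL53 and GL78 and of 2.34 at E10.5 in GL78, and 1 cell held 97.3% of its E10.5 counts. Kcnn4, a potassium channel, stood at 2.73 and 2.17 at E11.5, against −3.48 at E10.5. Smoc1, a matrix protein, stood at 2.23 and 3.47 at E11.5, against −2.67 at E10.5.

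Signal of cluster 4 genes also stood in cells outside the comparison, the 21 GFI1+ HE cells that the study's quality filters had left out. Gja5 summed to 116.2 CPM in them and Hey2 to 23.6 CPM, above the 0.462 CPM that a floor of 3 counts allows. The Gja5 reads came from 2 of the 21 cells, both also with Gja4 reads, and the Hey2 reads from 1.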

How the results depend on the processing

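Calls of 2-fold depended most on low values and on the number of batches. With a pseudocount of 10 CPM 425 genes were higher and 330 lower. Within batch and stage, with 3 strata in place of 2 batches, 519 of the 734 higher and 398 of the 604 lower calls were kept. Without a filter 1149 were lower, and with a minimum of 5 cells, which brings in GL58, 435 were higher. Leaving out 1 batch at a time gave 734 to 1404 genes at least 2-fold higher in cluster 4 and 604 to 1781 genes at least 2-fold lower in cluster 4, the highest counts standing for GL53 alone. The hematopoietic surface median was −3.79 with a pseudocount of 0.1, −1.34 with 10 and −0.93 with HE cells only, and −2.95 to −1.81 when leaving out 1 batch. The venous median was −1.04 with a pseudocount of 10, −1.06 with the mean of per-cell CPM, −1.07 thinned, −0.96 with HE only, −1.08 with 5 cells and −1.28 with G1 cells. The hematopoietic transcription factor median was −0.11 without a filter, −0.066 with median-ratio size factors, −0.12 thinned and 0.65 with HE only, and 0.022 to 0.159 without 1 batch. The HSC-associated median was 1.22 without a filter, 1.33 with 5 cells and 1.17 with G1 cells. The arterial median was 2.05 with HE only and 2.52 to 3.00 without 1 batch, the Notch receptor and ligand median 1.31 with HE only, and the Notch target median 0.86 without a filter and 1.47 with HE only. The cause of these moves was not tested. Reversed values were the DLL4 shares against cluster 1 (43.9% and 39.3% in GL78) and Cdk5rap3 between stages (0.31). Counting each repeated cell 1 time, comparing stages in HE only or with GL53 cells, and leaving out libraries with shared index values were chosen after seeing the data. A comparison of stages in G1 cells alone had fewer than 10 cells at E11.5 and gave no value. No paired analysis was possible because each library is 1 cell.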
